A study of Oryza sativa with 12 samples.

Results

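The genes described are 3 rice loci annotated as heat shock factors: LOC_Os03g06630 (HsfA2d), LOC_Os01g53220 (HsfC1b) and LOC_Os05g02410. They were selected on the same short-day against long-day contrast that is described here, because they are among the 275 loci that the deposited tables list for a difference between day lengths of at least 2-fold. Every short-day against long-day value of these genes is therefore a description and carries no p-value. HsfA2d and HsfC1b were listed at both stages sampled, and LOC_Os05g02410 at the later stage only, which gives 5 sets of signals.

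Heat shock factors are transcription factors that bind heat shock elements in the promoters of genes for heat shock proteins and other chaperones. Plants have a large family of them in classes A, B and C. Class A factors carry an activation motif that classes B and C lack. In Arabidopsis and tomato, HsfA2-type factors are strongly induced by heat and keep heat shock protein genes active during long stress. HsfC1b has been linked in rice to the response to salt and osmotic stress. The annotation of LOC_Os05g02410 refers to HSF30, the older name of a tomato HsfA2 protein. At P the annotation of HsfC1b, a class C factor, holds HSF30 too, so the label does not give a class. LOC_Os05g02410 is also not among the 25 loci of the rice heat shock factor family list used here, so its class is left unnamed.

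The RNA came from the second fully expanded leaf of Nongken 58S, a japonica rice whose pollen aborts when days are long, and was hybridised to 12 Affymetrix Rice Genome arrays. Every group, LD included, had begun with a short-day treatment that started panicle development in campus-grown plants. The day lengths differed only from the formation of secondary branches onwards, with 10 h of light and 14 h of darkness for SD against 15 h of light and 9 h of darkness for LD. Leaves were taken at glume primordium differentiation (G) and at pistil/stamen primordium formation (P), which gives G-SSD2, G-SLD2, P-SSD2 and P-SLD2 with 3 biological repeats each. A single time of day was sampled, no fertile line was on these arrays, and a leaf holds several cell types, so fewer cells of a type and less RNA per cell cannot be told apart. The signals below are linear array intensities, normalized by the authors. The sample columns of the G table carry the other stage's letter and were read as G arrays because the table is deposited for that stage and a supplementary table holds identical signals under G headings. The sources do not say if the signals of both stages were scaled in 1 step, so only differences within a stage were taken, and the signals of different genes were not ranked against each other.

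Over the probe sets the arrays were alike to different degrees. The mean correlation of an array with the other 2 of its group ran from 0.837 to 0.922, and 9 of 12 arrays correlated best, within their stage, with an array of the other day length. P-SSD2 repeat 1 had the lowest correlation, and a probe set for the 3′ end of the bioD spike-in read 143 there and from 1937 to 2639 on the other 11 arrays. P-SSD2 repeat 3 and P-SLD2 repeat 3 were closer to each other (0.928) than to their own groups. The same held for the SD and LD arrays of repeat 2 at P (0.931) and of repeats 1 (0.941) and 3 (0.918) at G. Values without P-SSD2 repeat 1, P-SSD2 repeat 3 or P-SLD2 repeat 3 are given where the member genes are described. The leaf label could not be checked against marker genes, because the probe set table carries no gene names.

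HsfA2d, a class A factor encoded on chromosome 3, had higher signals under SD than under LD at G. The 3 G-SSD2 arrays read 234, 635 and 291, and the 3 G-SLD2 arrays read 120, 146 and 116. The groups did not overlap, and the lowest SD signal was 1.61 times the highest LD signal. Repeat 2 had the highest signal of both groups and the highest SD signal was more than 2 times the next. The group means were 387 ± 217 and 127 ± 16 (± standard deviation, n = 3 each), a ratio of 3.04. On the log2 scale the difference was 1.47 with a standard error of 0.42 (limma). Without G-SSD2 repeat 2 the ratio of means was 2.06, which is close to the 2-fold bound that defined the list. Among the 57 genes listed as higher in SD at this stage, HsfA2d had rank 13 by ratio of means.

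At P the SD signals of HsfA2d overlapped the LD signals. The P-SSD2 arrays read 172, 331 and 369, and the P-SLD2 arrays read 177, 144 and 91.2. The overlap came from repeat 1, where the SD signal was 0.97 times the LD signal, while the SD signal was 2.29 times the LD signal in repeat 2 and 4.05 times in repeat 3. The means were 291 ± 105 and 138 ± 43.5 (± standard deviation, n = 3 each), a ratio of 2.11, and the log2 difference was 1.06 with a standard error of 0.42. HsfA2d stood at rank 91 of the 98 genes listed as higher in SD at P, where the lowest ratio was 2.01. P-SSD2 repeat 1, the array with the low bioD reading, held the lowest SD signal of the gene, and without it the ratio was 2.54. The ratio was below the 2-fold bound without P-SSD2 repeat 2 (1.96), P-SSD2 repeat 3 (1.83) or P-SLD2 repeat 3 (1.81). Without both arrays of repeat 1 the log2 difference was 1.61, and without both arrays of repeat 3 it was 0.58. The part of either repeat in the result was not tested.

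HsfC1b, a class C factor encoded on chromosome 1, ran the other way at both stages. At G the SD arrays read 132, 147 and 116, and the LD arrays read 244, 449 and 220. All 3 LD signals were above all 3 SD signals, with the lowest LD signal 1.49 times the highest SD signal. The means were 132 ± 15.6 under SD and 304 ± 126 under LD (± standard deviation, n = 3 each), a SD to LD ratio of 0.434 and a log2 difference of -1.14 with a standard error of 0.37. Repeat 2 again held the highest LD signal, and without that array the ratio was 0.569. Without it the gene would not have met the bound of 0.5. The gene had rank 38 of the 48 genes lower in SD, counted from the lowest ratio.

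The signals of HsfC1b at P were the tightest of the 5 sets. They were 151, 119 and 146 under SD and 254, 274 and 372 under LD. The groups were separate, with the lowest LD signal 1.68 times the highest SD signal, and LD exceeded SD by 1.68, 2.30 and 2.55 times in repeats 1, 2 and 3. The means were 139 ± 17.1 and 300 ± 63.3 (± standard deviation, n = 3 each), which gave a ratio of 0.463 and a log2 difference of -1.10 with a standard error of 0.30. The pooled within-group standard deviation of the gene was 0.24 on the log2 scale, against a median of 0.52 over the entries listed at this stage. Its ratio was rank 80 of 103 among entries lower in SD, and the highest ratio that still entered the list was 0.50. Without P-SSD2 repeat 1 the ratio was 0.442, without P-SSD2 repeat 3 it was 0.450, and without P-SLD2 repeat 3 it was 0.526.

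LOC_Os05g02410 was listed at P only and had the widest difference of the 3 genes. Its SD signals were 55.5, 134 and 136, and its LD signals were 436, 463 and 267. The lowest LD signal was 1.97 times the highest SD signal, so the groups were separate. The mean was 108 ± 45.8 under SD and 389 ± 106 under LD (± standard deviation, n = 3 each), a ratio of 0.279, or 3.59-fold higher in LD. The log2 difference was -1.91 with a standard error of 0.45. LD exceeded SD by 7.86 times in repeat 1, 3.46 times in repeat 2 and 1.97 times in repeat 3. The low SD signal of 55.5 lay on P-SSD2 repeat 1, and without that array LD was 2.88-fold higher. LD was 4.10-fold higher without P-SSD2 repeat 3 and 4.15-fold higher without P-SLD2 repeat 3. The locus had rank 14 of the 103 entries lower in SD. Its signals at G were not analysed here, so nothing is said of whether its difference was limited to one stage.

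**Figure D1:**
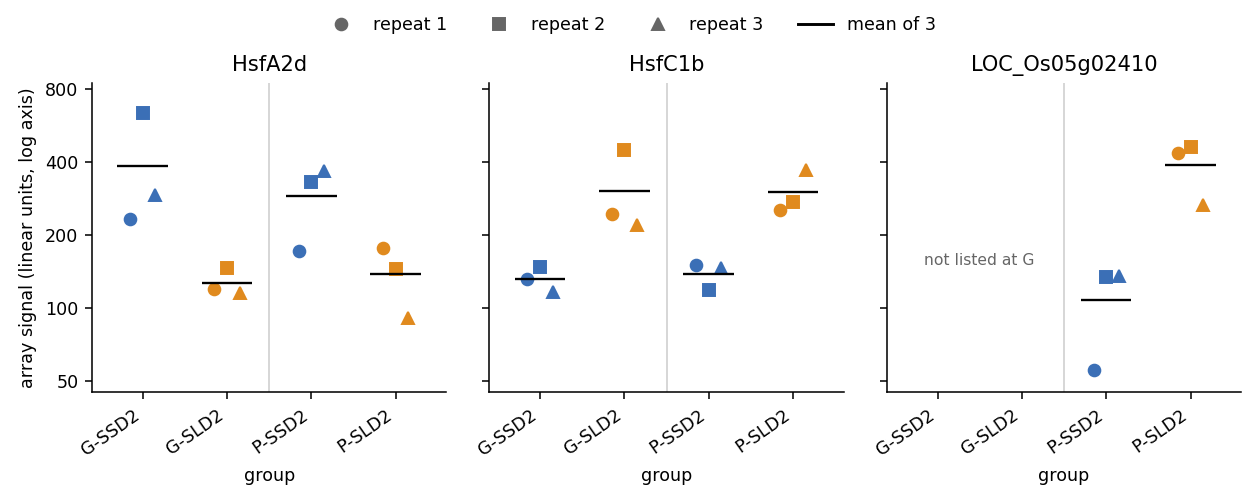
Array signal (linear units on a log axis) of HsfA2d, HsfC1b and LOC_Os05g02410 in G-SSD2, G-SLD2, P-SSD2 and P-SLD2, with blue for SD, orange for LD, a marker for each repeat and a line at the mean of 3. HsfA2d was higher in SD with overlap at P (172 in the lowest P-SSD2 array and 177 in the highest P-SLD2 array), and HsfC1b and LOC_Os05g02410 were lower in SD on every array of the stages shown.

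In 4 of the 5 sets the SD and LD signals did not overlap. This count has little meaning on its own, since the rule that chose the genes used the same signals: 96.2% of the 105 genes listed at G and 88.1% of the 201 entries (200 loci) listed at P were also without overlap. Over the 25360 probe sets kept from the whole array, 8.38% at G and 9.63% at P had SD and LD signals that did not overlap. A ratio of means of at least 2 or at most 0.5 was found for 3.33% of these probe sets at G and for 7.62% at P.

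HsfA2d and HsfC1b were also set against each other on the same array. The log2 ratio of HsfA2d to HsfC1b, taken as its deviation from the mean of the stage, was 0.71, 1.99 and 1.21 on the G-SSD2 arrays and -1.13, -1.74 and -1.04 on the G-SLD2 arrays. At P it was 0.27, 1.55 and 1.41 under SD and -0.44, -0.84 and -1.95 under LD. The genes were listed for a higher and a lower mean signal in SD, so the direction of this ratio between day lengths was fixed by their choice, and the values only describe the spread over arrays. P-SSD2 repeat 1 and P-SLD2 repeat 1 were the nearest pair of SD and LD arrays at P. The SD minus LD difference of the log2 ratio was 2.61 (SE 0.43) at G and 2.16 (SE 0.61) at P, from the spread of the 3 repeats per group. It measures an unequal change of both genes and does not say which of them changed.

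**Figure D2:**
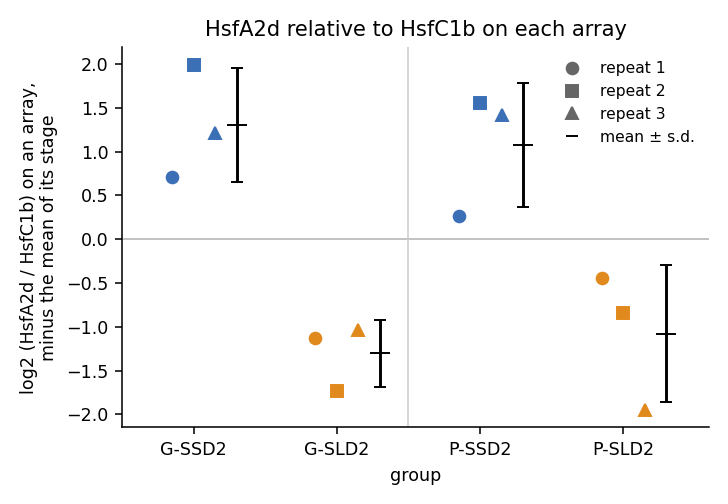
Log2 ratio of HsfA2d to HsfC1b on each array, minus the mean of the 6 arrays of its stage (y axis), for the 4 groups (x axis), with a marker for each repeat and the mean ± standard deviation of 3 in black. The SD arrays lie from 0.27 to 1.99 and the LD arrays from -1.95 to -0.44.

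The difference between the stages was small against its error for both genes listed at each. The log2 difference of HsfA2d at P minus that at G was -0.41 with a standard error of 0.67, from a fit over the 30 loci listed at both stages, and 2 standard errors either side run from -1.75 to 0.92. For HsfC1b it was 0.04 with a standard error of 0.67, from -1.29 to 1.37. These ranges hold changes of more than 2-fold in either direction for HsfC1b, so the data do not show that the stages responded alike.

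The tables were then searched for other genes of the heat shock response. They hold 105 and 201 entries in all, from arrays with 57194 probe sets other than controls. Of the 25 loci of the rice heat shock factor family list, HsfA2d and HsfC1b were listed and the other 23 were at neither stage. HsfA2d and HsfC1b were chosen for being listed, so their count is no result about the family. The share of all loci on the arrays that was listed is not known here. Of the 27 loci of a list of heat shock proteins, 1 was listed. It was LOC_Os02g52150, annotated as a heat shock 22 kDa protein, which belongs to the small heat shock proteins that hold unfolded proteins in solution. At P it read 71.8, 89.5 and 123 under SD and 28.6, 62.8 and 48.8 under LD. The groups were separate by a narrow margin, with the lowest SD signal 1.14 times the highest LD signal, and the log2 difference was 1.06 (SE 0.39). A locus that was not listed may still have differed by less than 2-fold, and the probe set table could not be searched for it by name.

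Annotations were searched for heat shock, dnaJ, chaperone or MAS5. This gave 3 loci other than the heat shock factor genes at G and 6 at P, with LOC_Os02g52150 again among the 6. Most were J-domain proteins, the co-chaperones that bring unfolded clients to Hsp70, but dnaJ and MAS5 were themselves search terms. All 3 at G were lower in SD, as were 48 of the 105 genes listed there. At P 4 were lower in SD and 2 were higher, beside 103 of the 201 listed entries lower. The groups of all 6 were separate at P, as were those of 88.1% of the entries. LOC_Os04g57880, a dnaJ domain protein, was lower in SD at both stages, with means of 96.6 ± 62.3 under SD against 307 ± 73.8 under LD at G and 72.7 ± 16.2 against 245 ± 71.9 at P (± standard deviation, n = 3 each). LOC_Os06g28050, whose annotation joins a ferredoxin with a DnaJ N-terminal domain, was lower in SD at both stages too, with means of 53.4 ± 23.3 under SD against 210 ± 81.6 under LD at G and 67.9 ± 21.8 against 193 ± 72.7 at P. LOC_Os03g18870, a chaperone dnaJ, was listed at G only, with a log2 difference of -1.57 (SE 0.35).

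At P, LOC_Os05g35340, annotated as MAS5, which in yeast is a DnaJ co-chaperone of Hsp70, had a log2 difference of -1.15 (SE 0.32), and LOC_Os06g14490, a calmodulin-binding heat shock protein, had one of -1.12 (SE 0.34). LOC_Os05g48810, a dnaJ homologue of subfamily B, was higher in SD, with a log2 difference of 1.15 (SE 0.38). Its SD signals were 131, 62.6 and 55.2, and the highest was on P-SSD2 repeat 1. Over the 3 loci at G the log2 differences had a median of -1.82, beside 1.02 over all genes listed there. Over the 6 loci at P the median was -1.13, beside -1.02 over all entries. Listing required a 2-fold difference, so the sign of a median over a list depends on which direction held more entries. That was higher in SD at G (57 against 48) and lower in SD at P (103 against 98). The heat shock and chaperone loci entered the tables through the same contrast, so their counts and medians describe the lists. They support no statement about chaperones as a group.

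**Figure D3:**
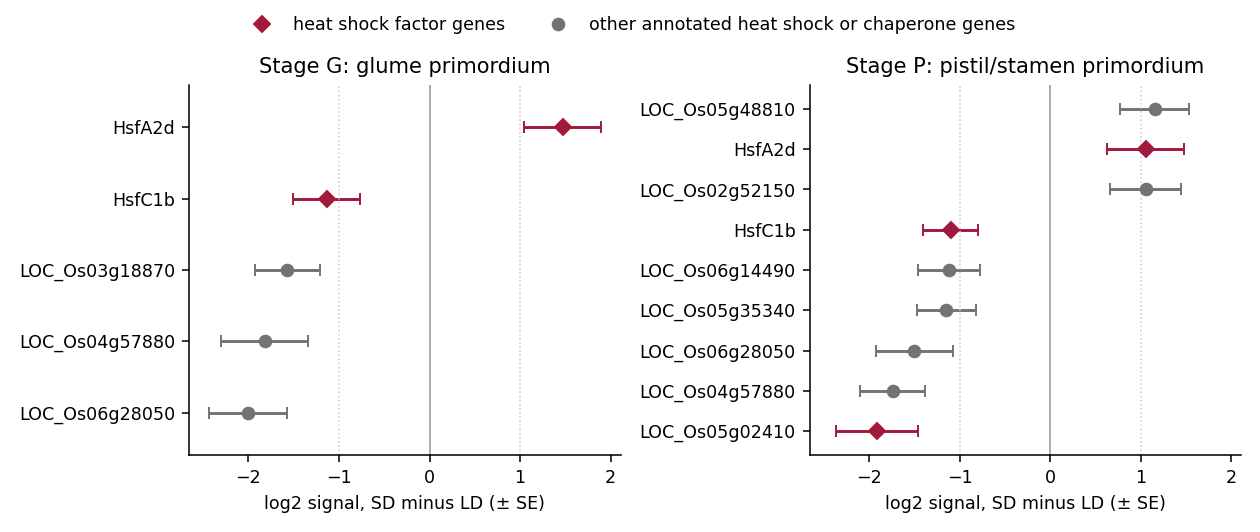
Log2 signal in SD minus LD (x axis) with its standard error for the heat shock factor genes (red diamonds) and the other annotated heat shock or chaperone genes (grey circles) at G (left) and P (right), with dotted lines at a 2-fold difference. At G HsfA2d alone lies on the SD side (1.47), and at P it lies there with LOC_Os05g48810 (1.15) and LOC_Os02g52150 (1.06).

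The genes whose signals ran closest to each heat shock factor were found by the root mean square (RMS) difference of log2 signals, each centred on the mean of the gene, over the 6 arrays of a stage. They share the arrays and the list with the heat shock factors, so likeness here includes the day-length difference that put them in the list. For HsfA2d at G the closest was LOC_Os04g53310, soluble starch synthase 3, which extends the glucan chains of amylopectin, at an RMS difference of 0.35, beside a median of 1.03 over the genes listed. Its means were 631 ± 178 under SD and 304 ± 23.8 under LD (± standard deviation, n = 3 each). LOC_Os01g43220, a glycosyl hydrolase (0.39), and LOC_Os05g06650, of unknown function (0.42), followed. All 3 had their highest SD signal on G-SSD2 repeat 2, as HsfA2d did.

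For HsfA2d at P the closest genes were other loci. LOC_Os01g31220, of unknown function, differed by an RMS of 0.20. LOC_Os06g45140, annotated as CPRF-2, a bZIP factor first described in parsley for its binding to light-responsive promoters, differed by 0.30, and its mean was 184 ± 77.5 under SD and 83.2 ± 22.5 under LD (± standard deviation, n = 3 each). LOC_Os03g41060, a gibberellin-regulated protein, differed by 0.35. None of these 3 was among the 3 closest at G. Only 30 loci were listed at both stages, and a gene listed at P alone could not be found at G. This outcome was therefore largely fixed by the lists.

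For HsfC1b at G the closest was LOC_Os07g07320, the glutathione S-transferase GSTU6, of a class that conjugates glutathione to toxic or oxidised compounds, at an RMS difference of 0.20. It had 46.0 ± 3.21 under SD and 120 ± 68.9 under LD (± standard deviation, n = 3 each), and like HsfC1b its highest signal was on G-SLD2 repeat 2. LOC_Os03g08580, of unknown function (0.26), and LOC_Os06g28194, of the phosphoglucomutase family that interconverts hexose phosphates (0.30), came next. At P the closest were LOC_Os10g40370 (0.13) and LOC_Os11g41600 (0.19), both of unknown function, and LOC_Os10g38910, annotated as a permease of a cobalt transport system (0.23). With signals also divided by the standard deviation of the gene, only LOC_Os10g40370 of these 3 stayed among the 3 closest at P.

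For LOC_Os05g02410 at P, LOC_Os05g51690, a CCT motif protein of the type found in CONSTANS and other flowering-time regulators, differed by an RMS of 0.33, LOC_Os12g12370, an outer envelope protein, by 0.33, and LOC_Os05g46470, of unknown function, by 0.37. All 3 shared its low signal on P-SSD2 repeat 1, the array that stood apart. With signals also divided by the standard deviation of the gene, only LOC_Os05g46470 of these 3 stayed among the 3 closest. HsfC1b differed from LOC_Os05g02410 by 0.77 at P, and HsfA2d differed from them by 1.24 and 1.49. HsfC1b and LOC_Os05g02410 were listed as lower in SD and HsfA2d as higher, so the order of these values largely follows from their choice.

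**Figure D4:**
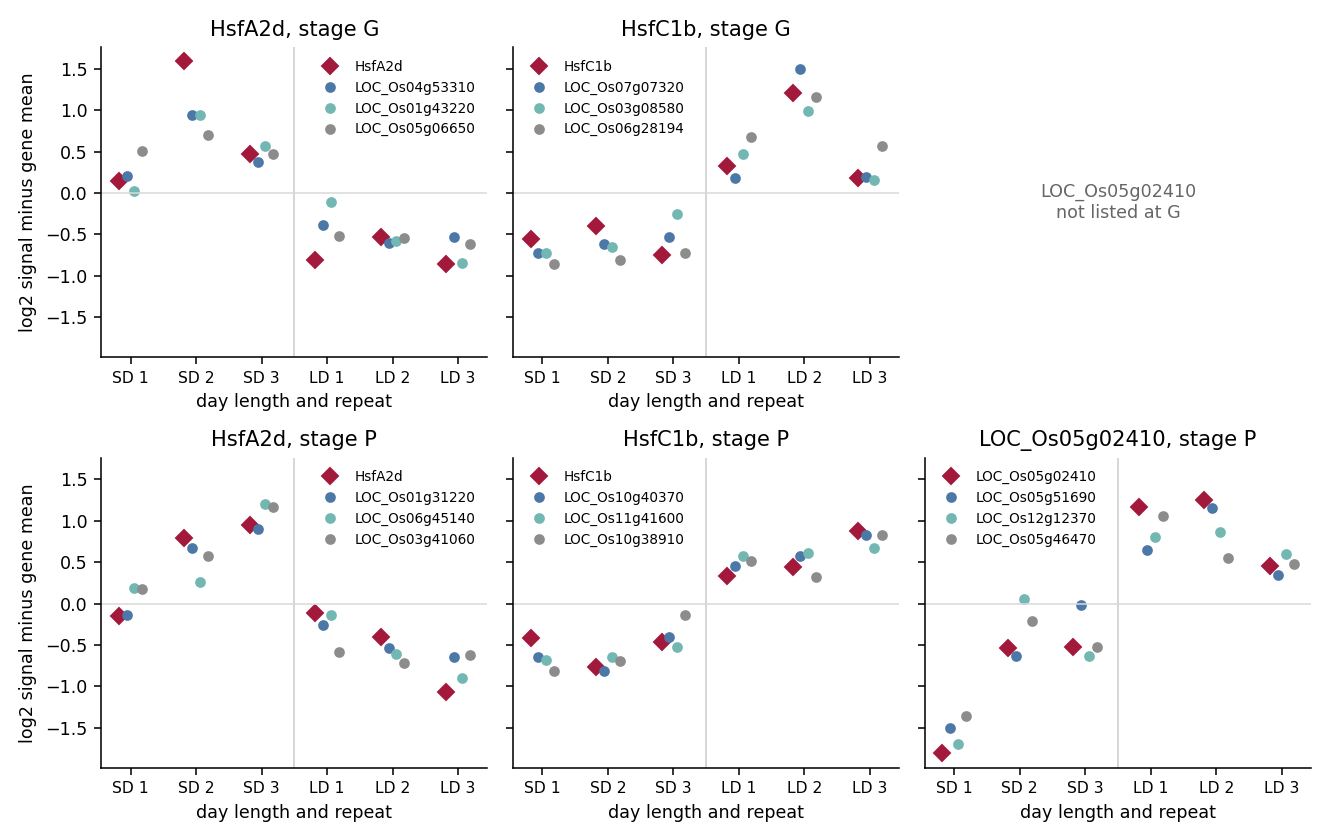
Log2 signal minus the mean of the gene (y axis) on the 6 arrays of a stage (x axis, day length and repeat) for each heat shock factor gene (red diamonds) and the 3 listed genes closest to it (circles). The closest genes of HsfA2d and HsfC1b at G peak with them on repeat 2 of SD and of LD respectively, and those of LOC_Os05g02410 are lowest with it on P-SSD2 repeat 1.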

How the data were processed

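The authors deposited, for each stage, a table of genes with a ratio of SD to LD of at least 2 or at most 0.5 and 6 linear signal intensity values per gene, made, by the methods, with dChip (invariant-set normalization, and 5% of perfect-match signals taken as background). They also deposited an intensity table of 57381 probe sets on 12 arrays without gene names, for which the submitters' processing notes name GCOS 1.4. Columns with the authors' own fold changes and P values were not used.

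Log2 intensities of the listed genes were fitted with limma 3.58.1 in R 4.3.3 (lmFit, eBayes with trend) within each stage, for estimates and standard errors only. In simulated data, 89.5% of 105 estimates at G and 91.5% of 201 at P lay within 2 standard errors of the truth. The simulation drew independent normal noise, without pairing of repeats or selection by fold, so these shares need not hold for the listed genes. For background shares, 187 control probe sets were left out, values were quantile normalized, and only probe sets in the upper part of the signals (60th percentile or more) on 3 arrays or more were kept, 25360 in all. Genes named are the 3 heat shock factor genes, every listed gene of the heat shock lists, and the 3 listed genes closest to each member at each stage. Members and lists were chosen with earlier results of these data known. RefSeq synonyms matched 2 of the 3 members.

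Whether repeat numbers pair arrays was checked with the correlation, over the probe sets kept, between an SD array's deviations from its group mean and those of the LD array with its number. At G it was 0.20, -0.0015 and 0.32 for repeats 1, 2 and 3, and at P it was 0.22, 0.29 and 0.51, so by a bound of 0.1 for every pair the numbers paired the arrays at P and not at G. Over the listed genes alone the values at P were 0.0072, 0.14 and 0.10, so repeat 1 shows no pairing there. The main fit has no block. A comparison of the stages at 1 day length on the probe sets was not run, since no table pairing probe sets with genes was given.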

Additional observations from a re-analysis of the deposited data

How the results depend on the processing

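The log2 difference of SD minus LD kept its direction in all 5 gene and stage sets under all 65 alternatives that gave a value. These left out arrays, used means of linear signals or medians, centred arrays on the listed genes, or added a pseudocount of 16. For the 4 sets without overlap, only the centring could have reversed the direction, so its being kept there says little. The genes were also chosen for this difference. In 64 of the alternatives the value moved by less than 1 standard deviation of the repeats. The exception was HsfA2d at P without both arrays of repeat 1 (1.61), a choice made after the data were seen. Over arrays left out singly or by repeat number, the differences ran from 1.04 to 1.76 for HsfA2d and from -1.33 to -0.82 for HsfC1b at G. At P they ran from 0.58 to 1.61 for HsfA2d, from -1.27 to -0.93 for HsfC1b and from -2.38 to -1.38 for LOC_Os05g02410. The difference between stages ran from -0.71 to 0.01 for HsfA2d and from -0.28 to 0.23 for HsfC1b, so its sign is not settled for either gene. Listed genes without overlap numbered 101 at G and 177 at P with all arrays. With a repeat left out they numbered 101 to 105 at G and 184 to 196 at P. Leaving out arrays can only keep or raise this count.

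With a replicate block the standard errors were 0.40 (HsfA2d) and 0.38 (HsfC1b) at G, and 0.48 (HsfA2d), 0.32 (HsfC1b) and 0.47 (LOC_Os05g02410) at P, and 0.60 (HsfA2d) and 0.58 (HsfC1b) for the difference between stages. The replicate block leaves the differences themselves unchanged by design, and no call was made that it could change. From its own 6 signals alone, HsfC1b at P had a standard error of 0.20 in place of 0.30. When signals were also divided by the standard deviation of the gene, 9 of the 15 most alike genes were the same. At P only 1 of 3 was the same for HsfC1b, and only 1 of 3 for LOC_Os05g02410. Alternatives on the probe set table were not run. With 3 repeats per group and selection by fold, the sizes given may be larger than those of new samples, and the limits of signal over background are unknown for the listed genes.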
